A study of Mus musculus with 23 samples.

Results

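The comparison rests on 9 of the 23 bulk RNA sequencing libraries of a study of branching pancreatic tumor organoids, namely the 6 libraries whose titles mark cells grown in 2D and the 3 whose titles mark organoids grown in 3D for 7 days. All 9 were made from primary tumor cells of 1 KC mouse, whose genotype includes Ptf1a Cre/+, and carry the same batch label, so that the comparison is between culture forms of 1 cell line and not between animals or genotypes. Cre from the Ptf1a locus acts in the pancreas, and both groups came from the same tumor cells. The 2D cells grew in flasks, attached to plastic and covered by a serum-containing medium rich in glucose, and were lysed in the flask. The organoids grew in the same medium from single cells seeded into floating gels of rat tail collagen I. At day 7 they were in the phase that the study calls extension, when thin branches grow out into the gel and no lumen has formed. They were freed from the gel by a short digestion with collagenase at 37 °C before lysis. Culture form, time in the gel and digestion changed together and cannot be told apart here. The 5 libraries of the same cells at day 13 in collagen, from the same batch, are given beside them for reference, and the comparison of day 7 with day 13 uses the same day 7 libraries.

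A cell attached to plastic and a cell embedded in collagen meet their surroundings through integrins, receptors that join laminins and collagens outside the cell to talin, vinculin and actin inside it. Ductal epithelial cells are further held to each other by cadherins and by tight junctions built from claudins and occludin, and they secrete mucins and trefoil peptides from an apical surface that faces a lumen. The outgrowth of a branch involves cell division, contractile actin and the surrounding matrix, and the genes below are ordered by these roles.

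Each count is a unique molecular identifier (UMI), that is, 1 captured RNA molecule read from its 3' end. The totals per library ran from 1221451 to 1382736 in 2D replicates 1–3, from 1649327 to 2091391 in 2D replicates 4–6 and from 2059462 to 2471058 at day 7. Levels are given as CPM, the share of a gene in its library's total, with the totals adjusted by the TMM factors of edgeR, which balance the libraries over the bulk of genes. A pair of values joined by a dash gives the lowest and the highest library. A count of 3, taken as the limit that a count of 0 allows, corresponded to between 1.16 and 3.22 CPM in these 9 libraries. These limits cover counting error only. The study describes the day 7 libraries as individual experiments. For the 2D libraries no source used here says whether they came from separate cultures, so that their spread, and the p-values that rest on it, may be technical in part.

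The 6 2D libraries formed 2 sets. Replicates 1–3 carry titles ending in A to C and replicates 4–6 titles ending in D to F, and the labels do not say what parts them. Of the 11144 tested genes, 5288 (47.5%) did not overlap between the sets, 2504 of them higher in replicates 1–3 and 2784 higher in replicates 4–6. The chi-square of the counts per gene was 1.85 to 2.90 between replicates 1–3 and 1.27 to 2.15 between replicates 4–6, and 21.6 to 33.7 across the sets. Transcripts of ribosomal protein genes made up 21.1 to 22% of the counts in replicates 1–3, 11.4 to 12.5% in replicates 4–6 and 10.5 to 11.4% at day 7. The share of mitochondrially encoded transcripts was 4.99 to 5.76%, 2.51 to 3.01% and 3.37 to 4.09% in the same order. The sets also differed by transcript length. Among the 2200 tested genes whose longest annotated transcript has 57 to 1828 bases, 51.2% lay higher in all of replicates 1–3 than in replicates 4–6 and 11.1% lay lower. Among the 2201 genes with the longest transcripts, of 5206 bases or more, 7.72% lay higher and 29.9% lower. Every test of single genes was therefore made against all 6 2D libraries and against each set alone, and a gene is said to have held where it was called in the same direction in all 3 fits.

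**Figure D1:**
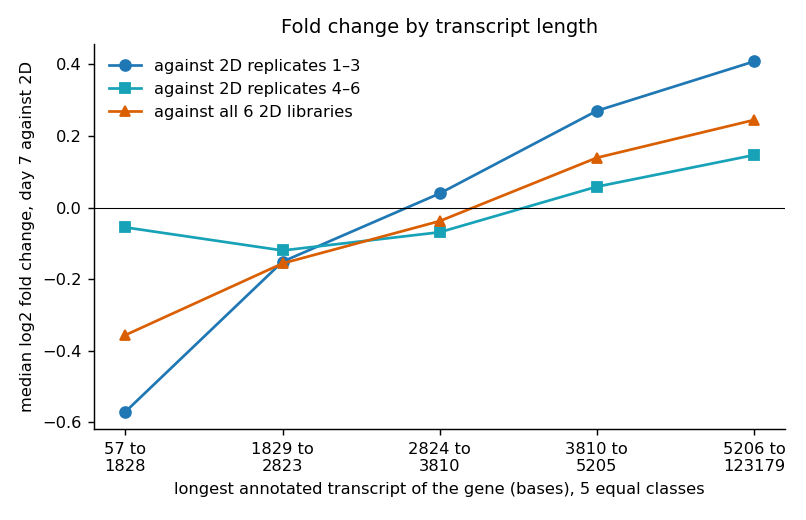
Median log2 fold change of day 7 against 2D (vertical axis) in 5 classes of tested genes by their longest annotated transcript in bases (horizontal axis), against 2D replicates 1–3 (circles), against 2D replicates 4–6 (squares) and against all 6 2D libraries (triangles). The median runs from −0.57 in the shortest class to 0.41 in the longest against replicates 1–3, and from −0.06 to 0.15 against replicates 4–6, with its lowest value, −0.12, in the second class.

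The trend with length was seen against both sets and was smaller against replicates 4–6. A fit in which each library's trend with length was removed, chosen after the data had been seen, called 5532 genes, against 5706 without that step, with 4791 genes called in the same direction by both. It also takes away any difference that genes of 1 length class share. Of the 3458 genes that held against both sets, 3307 were also called in that fit. Held calls nonetheless followed length. In the shortest class 9.59% of genes held higher and 22.8% held lower, and in the longest class 23.9% and 5.41%.

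Of 7 markers of ductal epithelium, all had counts in every library. Krt7 lay at 1309 to 2080 CPM in 2D and at 1361 to 1417 CPM at day 7, and Krt19 at 1869 to 2951 and at 3374 to 3871 CPM. Krt18 lay at 2651 to 3153 CPM in 2D and at 3494 to 4242 CPM at day 7, and Krt8 is given below. Cdh1, E-cadherin, lay at 109 to 180 and at 151 to 222 CPM, so that its groups overlapped. Sox9, the transcription factor of ductal progenitors, was lower at day 7 (145–332 CPM in 2D, at most 92.2 CPM at day 7, log2 fold change −1.38, SE 0.25, named after its values were seen) and so was Epcam, described below. In bulk samples such as these, fewer cells of a type and less RNA per cell cannot be told apart. Markers of other cell types were low. Of 12 fibroblast markers in the count table, 9 had a count in 2D and 8 at day 7, and their summed level was 61.9 to 188 CPM in 2D and 54.6 to 88.7 CPM at day 7, with Thy1 and Rgs5 at 0 in both. The sum was 131 to 188 CPM in 2D replicates 1–3 and 61.9 to 78.5 CPM in replicates 4–6. Of 8 immune markers, 4 had a count in 2D and 3 at day 7, with summed levels of 4.57 to 18.3 and 3.41 to 5.88 CPM, and Cd3g, Cd79a and Itgam were at 0 in both. Endothelial markers summed to at most 26.6 CPM in 2D and 10.8 CPM at day 7, with Kdr and Emcn at 0 in both, and acinar and endocrine markers to at most 20.4 and 4.41 CPM.

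The first question was how far the transcriptome of the organoids lay from that of 2D cells of the same line. The mean Euclidean distance on log2 CPM of all tested genes was 103 between day 7 and 2D replicates 1–3 and 78.1 between day 7 and replicates 4–6. Between the 2D sets it was 80.3, and within day 7 it was 42.5. The pseudo-F of 2D against day 7 was 5.85 (exact permutation test over all 84 assignments of the group labels, p = 0.0119, the smallest p they allow). The test treats single libraries as exchangeable units, whereas the 2D libraries fell into sets, so that its p-value is a description only. With edgeR's quasi-likelihood test and a Benjamini-Hochberg adjusted p-value under 0.1, 2759 genes (24.8%) were called higher and 2947 (26.4%) lower at day 7. A change of at least 2-fold was called for 578 genes (5.19%) that rose and for 1189 (10.7%) that fell. With scaling by library size alone the split was 3324 higher and 1997 lower, and the median log2 fold change of all tested genes was 0.14 in place of −0.02. In total, 1817 genes (16.3%) held higher and 1641 (14.7%) held lower, and 326 (2.93%) and 569 (5.11%) did so with at least a 2-fold change in all 3 fits. Of the same genes, 28.1% were called higher and 27.1% lower at day 7 than at day 13. The shares in brackets, which pool genes of all transcript lengths, are the background against which the counts of each gene list are set below.

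**Figure D2:**
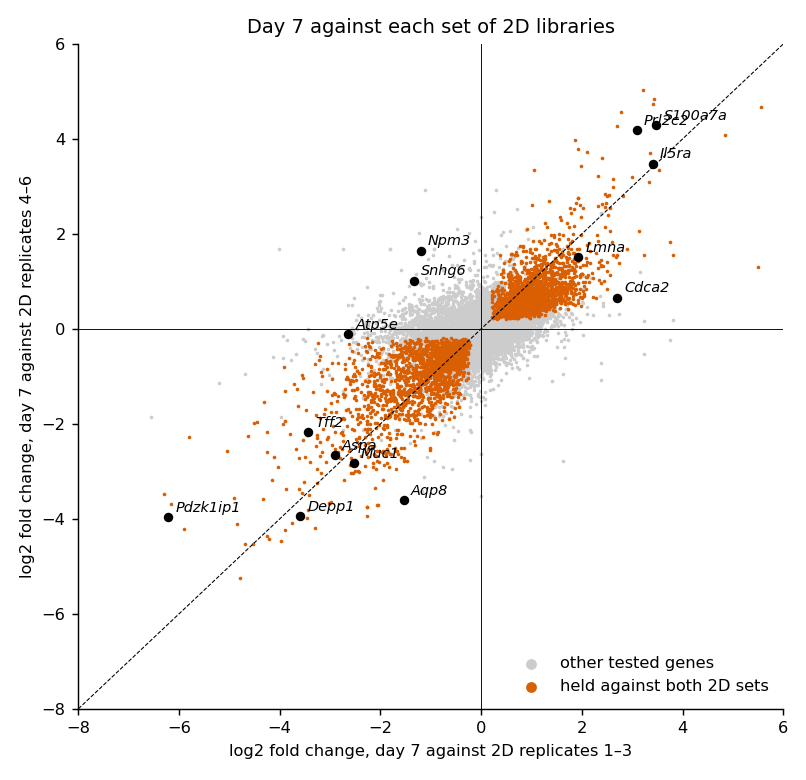
Log2 fold change of day 7 against 2D replicates 1–3 (horizontal axis) and against 2D replicates 4–6 (vertical axis) for the 11007 genes tested in both fits, with the 3458 genes that held in orange, all other genes in grey and named genes in black. Held genes lie in the lower left and upper right by construction, while Npm3 and Snhg6 lie above zero against one set and below zero against the other.

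Among the 6 marker genes, the 3 that rose were Lmna, S100a7a and Prl2c2 and the 3 that fell were Depp1, Aspa and Muc1. The day 7 libraries overlapped with no 2D library in any of them, as in 17.2% of all tested genes upwards and 15% downwards, and all 6 held with at least a 2-fold change. The 6 were chosen with earlier results of these data known, so these outcomes and their p-values describe them and are no independent support. Lmna (chromosome 3, 88480147 to 88509956, GRCm38) encodes lamins A and C, which form the mesh under the nuclear envelope and whose amount follows the stiffness of a tissue. It was counted at 417, 448 and 427 CPM in 2D replicates 1–3, at 584, 588 and 547 CPM in replicates 4–6 and at 1616, 1635 and 1711 CPM at day 7. Every day 7 library lay well above the 2D cells of both sets, the log2 fold change being 1.72 (SE 0.11, edgeR adjusted p = 2.9e-11). At day 13 the level was 528 ± 26.6 CPM (SD, n = 5), near that of the 2D cells, with a log2 fold change of day 7 against day 13 of 1.65 (adjusted p = 2.92e-11, edgeR).

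S100a7a (chromosome 3, 90654017 to 90658669) encodes an antimicrobial S100 protein of the psoriasin family. Its level was 15, 18.4 and 13.8 CPM in replicates 1–3, 10.05, 8.16 and 8.24 CPM in replicates 4–6 and 194, 153 and 186 CPM at day 7. The rise was of 3.95 (SE 0.22, edgeR adjusted p = 1.67e-12) on the log2 scale, and at day 13 the transcript was counted at 7.79 ± 3.70 CPM (SD, n = 5). Prl2c2 (chromosome 13, 12996125 to 13005383) encodes proliferin, a growth factor of the prolactin family best known from the placenta and from dividing cells. It rose from 24.7, 22.3 and 27.6 CPM in replicates 1–3 and 11.9, 13 and 9.42 CPM in replicates 4–6 to 214, 212 and 214 CPM, a log2 fold change of 3.67 (SE 0.24, edgeR adjusted p = 2.9e-11). Its neighbor Prl2c3 (12790816 to 12800079 on the same chromosome) went from 8.59–15.5 and 3.65–6.48 CPM in the sets to 121, 120.5 and 157 CPM, and the less abundant Prl2c5 was called as well, so that all 3 tested members of the prolactin family were higher. These genes are near-identical copies: of the 60-base stretches in the last 500 bases of the annotated Prl2c2 transcripts, 69.7% occur in Prl2c3 and 15.7% in Prl2c5. How the counting split molecules that match several copies is not given in the sources used here, and the values of the single copies are uncertain.

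Depp1 (chromosome 6, 116650609 to 116652794), a transcript that FoxO factors and progestins induce and whose product acts on autophagy, fell most among the markers. It stood at 469, 455 and 453 CPM in replicates 1–3 and 609.6, 621 and 503 CPM in replicates 4–6 and at 43.6, 42.2 and 29 CPM at day 7 (log2 fold change −3.76, SE 0.17, edgeR adjusted p = 6.06e-14). Aspa (chromosome 11, 73304992 to 73329596), the aspartoacylase that releases acetate from N-acetylaspartate, stood at 181, 182 and 198 CPM in replicates 1–3, at 157, 152 and 159 CPM in replicates 4–6 and at 24.5, 27.9 and 22.6 CPM at day 7 (log2 fold change −2.77, SE 0.15). Muc1 (chromosome 3, 89229057 to 89233381), the transmembrane mucin of apical epithelial surfaces, stood at 426, 447 and 487 CPM in replicates 1–3, at 548, 589 and 509 CPM in replicates 4–6 and at 79.9, 90.7 and 65.2 CPM at day 7 (log2 fold change −2.67, SE 0.16). In all 3 the sets of 2D libraries lay close to each other and far above day 7. At day 13 Depp1 was counted at 316 ± 39.3 CPM, Aspa at 109 ± 16 CPM and Muc1 at 599 ± 85.8 CPM (SD, n = 5 each), all higher than at day 7 by edgeR (adjusted p = 3.98e-13, 3.84e-11 and 6.67e-13).

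**Figure D3:**
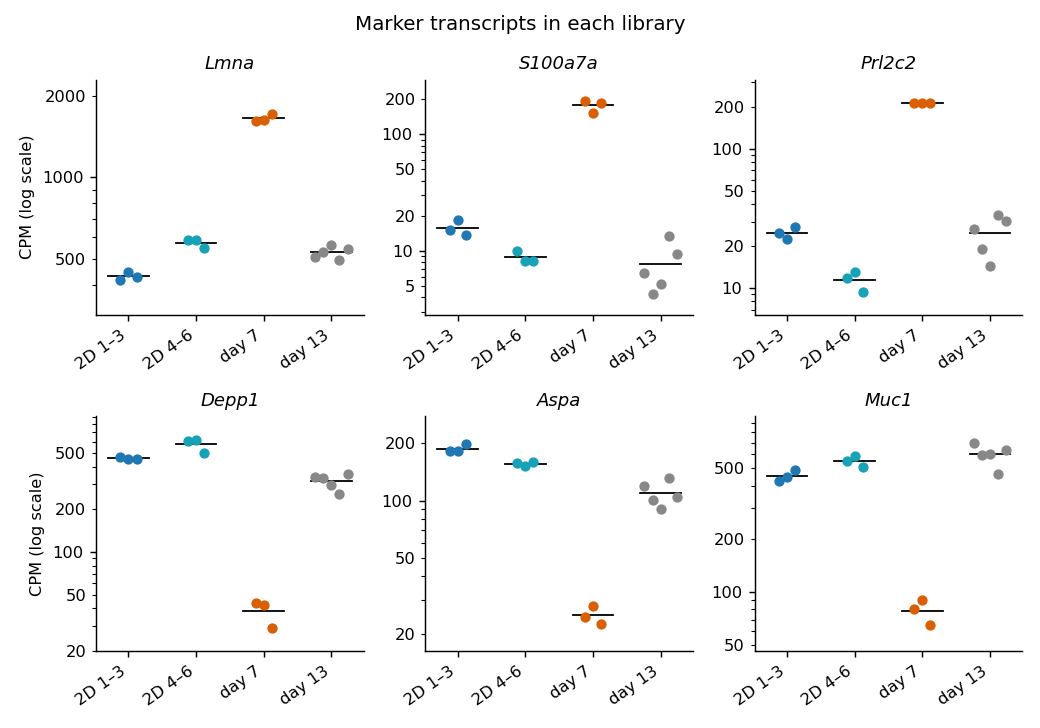
CPM on a log axis of the 6 marker genes in each library of 2D replicates 1–3, 2D replicates 4–6, collagen day 7 and collagen day 13, with a point per library and a line at the group mean. The 3 day 7 libraries lie above every 2D library for Lmna, S100a7a and Prl2c2 and under every 2D library for Depp1, Aspa and Muc1.

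The largest changes in the whole table, among called genes that reached 20 CPM in either group and whose day 7 and 2D libraries did not overlap, lay partly in genes of low level. Beside S100a7a and the proliferin genes, Vmn2r79, annotated as a vomeronasal receptor gene, rose from at most 1.83 CPM in 2D to 18.6–23.2 CPM (log2 fold change 4.32, SE 0.38). Il5ra, the receptor chain for interleukin-5, rose from 5.30–12.3 CPM in 2D to 97.1, 98.4 and 129 CPM at day 7 (log2 fold change 3.47, SE 0.20), and both sets of 2D cells lay in the same low range. Syt7, a calcium sensor of vesicle fusion, rose from 0–4.30 to 19.6–35 CPM. At day 13 Il5ra stood at 6.82 ± 2.14 CPM and Syt7 at 3.39 ± 1.26 CPM (SD, n = 5).

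Several of the genes that fell most differed between the 2D sets. Pdzk1ip1, a small membrane protein of epithelia, stood at 289, 292 and 356 CPM in replicates 1–3, at 57.1, 65.8 and 72.4 CPM in replicates 4–6 and at 5.39, 4.26 and 2.98 CPM at day 7, so that its log2 fold change was −6.21 against the first set and −3.96 against the second. Cxcl15, a chemokine of airway and other epithelia, stood at 69.8–75.9 and 7.68–14.1 CPM in the sets. At day 7 it stood at 0.490, 1.16 and 0.853 CPM, at most 3 counts in any library. Ptgds, a prostaglandin D synthase, stood at 52.6–61.1 and 8.68–11 CPM in the sets and at 0.981, 0.387 and 0.853 CPM at day 7, again at most 3 counts. For both, the distance from day 7 was larger for the first set. Lbp, the lipopolysaccharide-binding protein, and Gdf10, a growth factor of the BMP family, fell alike against both sets. Lbp went from 34.9–48.9 to 0.426–3.43 CPM (log2 fold change −4.25 and −4.36 against the sets) and Gdf10 from 25.8–36.5 to 0.981–2.13 CPM (−3.90 and −4.24).

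The gene lists were taken next, beginning with the cell cycle. Of 48 tested genes of G2/M and mitosis, 41 were called higher and 2 lower, 36 held higher, and the median log2 fold change was 0.99, against 24.8% and −0.02 over all tested genes. Of 46 tested genes of S phase and DNA replication, 38 were called higher, 28 of which held, and the other 8 did not pass the test, with a median of 0.62. Foxm1, the transcription factor that switches on mitotic genes, was counted at 9.67, 9.70 and 4.93 CPM in replicates 1–3, at 14.6, 16.8 and 14.1 CPM in replicates 4–6 and at 34.8, 39.1 and 49.9 CPM at day 7 (log2 fold change 1.72, SE 0.25, edgeR adjusted p = 7.68e-06). Rrm2, the regulated subunit of the enzyme that makes deoxyribonucleotides, was counted at 105, 108 and 113 CPM in the first set, at 231, 235 and 241 CPM in the second and at 739, 677 and 702 CPM at day 7 (log2 fold change 2.01, SE 0.21). For both genes the 2D sets lay apart from each other and both lay under day 7. Birc5, which encodes survivin of the chromosomal passenger complex, went from 74.7–135 CPM in 2D to 299–320.1 CPM, and the replicative helicase subunit Mcm4 from 17.7–50.4 to 85.7–92.7 CPM. Stmn1, which destabilizes microtubules, held lower (31.5–53.4 to 24.8–28.6 CPM) and Pttg1, the securin, was called lower against all 6 2D libraries (log2 fold change −0.56) but not against replicates 4–6 (−0.29), nor without day 7 replicate 1 (−0.39) or 3 (−0.50). With the length trend removed, neither was called (−0.40 for Stmn1 and −0.37 for Pttg1). The median of the G2/M list was 1.42 against replicates 1–3 and 0.70 against replicates 4–6. At day 13 Foxm1 was at 8.41 ± 4.17 CPM, Rrm2 at 119.9 ± 26.7 CPM and Birc5 at 68.8 ± 11.9 CPM (SD, n = 5), each called lower than at day 7 by edgeR (adjusted p = 1.13e-07, 8.13e-10 and 7.31e-12).

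The promoter of Kif4, a chromosome-bound kinesin that rose from 0.970–12 to 16.2–29.4 CPM, is shown because it holds both sequence elements for which the mitotic genes are known. It spans 250 bases before to 50 after the start (chrX:100625815-100626114, plus strand, RefSeq, GRCm38.p6), with 2 CCAAT boxes (1 of them on the other strand) and the cell cycle homology element TTTGAA in capitals.
Kif4: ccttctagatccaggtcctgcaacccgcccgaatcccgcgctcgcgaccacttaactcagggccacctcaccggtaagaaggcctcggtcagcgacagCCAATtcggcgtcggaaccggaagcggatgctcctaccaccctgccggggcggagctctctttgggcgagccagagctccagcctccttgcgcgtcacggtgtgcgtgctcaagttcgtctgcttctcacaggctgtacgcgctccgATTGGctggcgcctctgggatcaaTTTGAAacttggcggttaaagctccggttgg
Promoter windows were found for 41 of the 48 tested G2/M genes, 44 windows in all. CCAAT on either strand was found in 75% of these windows, against 37.4% of all 32851 windows in the table and 37.8% of those of tested genes. TTTGAA or TTCGAA on either strand was found in 75%, against 19.2% and 13.7%. For S phase genes, the E2F element TTTNGCGC on either strand was found in 23.9% of 46 windows, against 1.38% of all windows and 2.52% of those of tested genes. These are matches of letters and do not show binding.

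Genes for making ribosomes were mostly higher. Of 46 tested genes of the Myc and ribosome biogenesis list, 33 were called higher and 3 lower, with a median log2 fold change of 0.50. The ribosome assembly factor Rrp12 rose from 2.94–7.31 to 19.1–21.3 CPM and Cad, the enzyme that starts pyrimidine synthesis, from 3.22–18.2 to 30.4–58.4 CPM. Myc, the transcription factor itself, was counted at 189–205 and 244–267 CPM in the sets and at 121, 120.5 and 116 CPM at day 7. It was lower against both sets (log2 fold change −0.73 and −1.13). The other 2 genes called lower did not hold. Polr1c was called lower against replicates 1–3 (−0.88) and not against replicates 4–6 (−0.05), and Hspe1 was called lower against the first set (−1.32) and higher against the second (0.38). The call of Polr1c was also lost without 2D replicate 3 (−0.35) or day 7 replicate 1 (−0.41), and that of Hspe1 without any one of 2D replicates 1 (−0.60), 2 (−0.49) and 3 (−0.45) or day 7 replicates 1 (−0.73), 2 (−0.65) and 3 (−0.68).

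**Figure D4:**
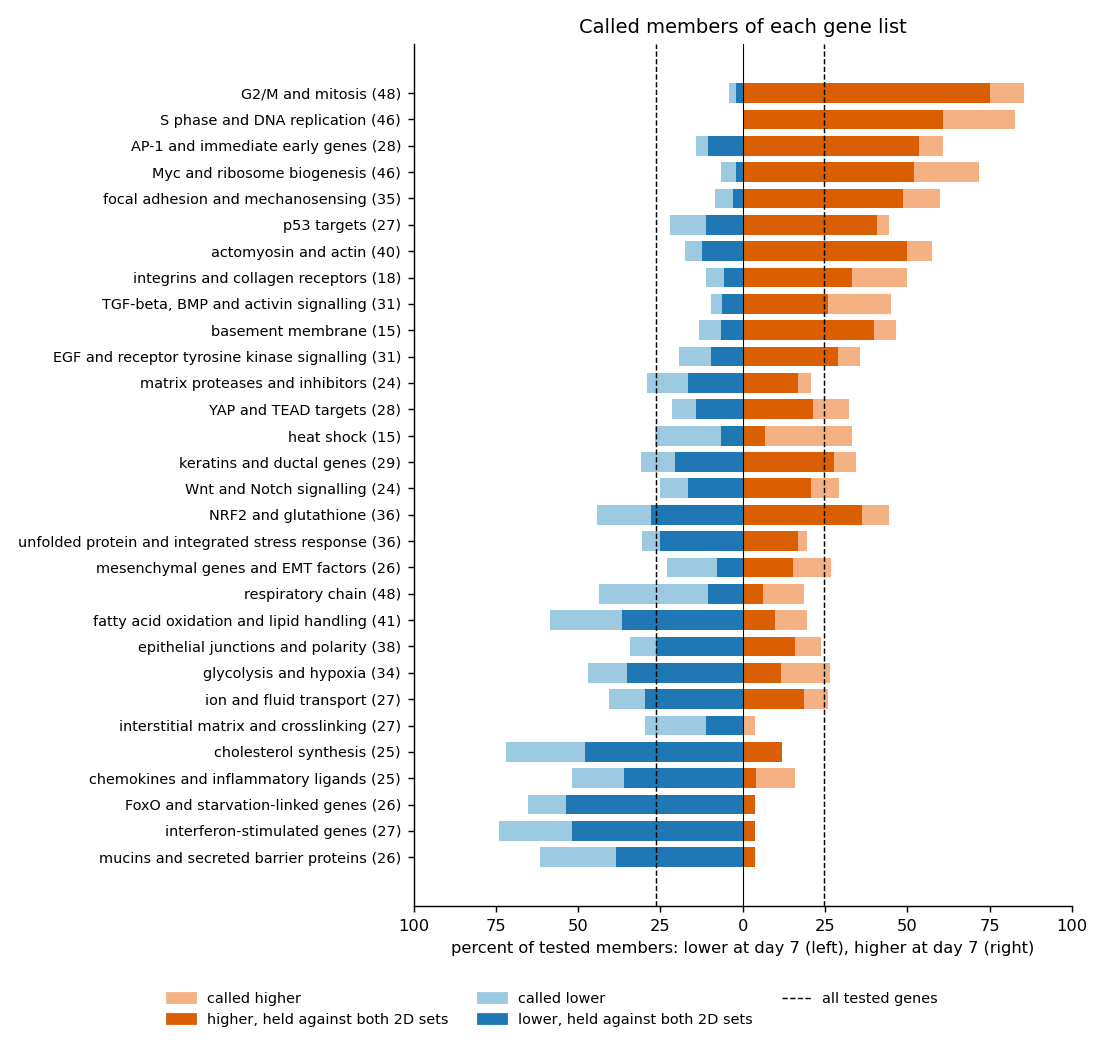
Percent of the tested members of each gene list (number in brackets) called lower (left, blue) or higher (right, orange) at day 7, ordered by median log2 fold change, with the members that held against both 2D sets in the darker shade. Dashed lines mark the 26.4% lower and 24.8% higher among all tested genes. Of the members tested, 85.4% of G2/M genes were called higher and 74.1% of interferon-stimulated genes lower.

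The next question was which parts of the adhesion machinery differed once the cells were in collagen. Of 18 tested integrins and collagen receptors, 9 were called higher and 2 lower (median 0.37), and 6 and 2 with the length trend removed (median 0.20). Itga6 and Itgb4, which pair into the laminin receptor of hemidesmosomes, rose together. Itga6 was counted at 75.2, 123 and 84.8 CPM in replicates 1–3, at 127, 128 and 130.1 CPM in replicates 4–6 and at 296, 337 and 390.5 CPM at day 7 (log2 fold change 1.60, SE 0.14, edgeR adjusted p = 4.19e-09). Itgb4 was counted at 67.9–93.4 and 87.7–98.9 CPM in the sets and at 164, 224 and 334 CPM at day 7, the day 7 libraries differing among themselves and all lying above 2D. Itga3, the other common laminin receptor chain, rose from 84.4–127 to 194–295 CPM. Sdc4, a heparan sulfate syndecan of focal contacts, was the member that held lower (214–248 to 138–148 CPM, log2 fold change −0.68). Their ligands rose in part. Of 15 tested basement membrane genes, 7 were called higher and 2 lower (median 0.28), and Lamb3, a chain of laminin-332, rose from 4.71–25.2 to 49.5, 53.1 and 89.5 CPM (log2 fold change 2.34, SE 0.30) and nidogen-1, Nid1, from 25.3–39.8 to 69.6–86.1 CPM. With the length trend removed the basement membrane count was 6 higher and 4 lower. Whether fibroblast RNA, whose markers are given above, had a part in these values was not tested.

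For the interstitial matrix the result depended on the 2D set. Of 27 tested genes, 1 was called higher and 8 lower, and 3 held lower. Against replicates 1–3 the median was −0.98 and against replicates 4–6 it was 0.06. The 3 tested markers of fibroblasts had medians of −1.16 and 0.12, and the summed level of the fibroblast list was 131 to 188 CPM in replicates 1–3, 61.9 to 78.5 CPM in replicates 4–6 and 54.6 to 88.7 CPM at day 7. The fibroblast markers include genes of interstitial matrix proteins, among them Lum, so that these values are not independent of the matrix list. The part of fibroblast RNA in the result was not tested. Fn1, fibronectin, stood at 498, 465 and 459 CPM in replicates 1–3, at 223, 187 and 221 CPM in replicates 4–6 and at 233, 251 and 167 CPM at day 7, that is, lower than the first set and overlapping with the second. Its call against all 6 2D libraries (log2 fold change −0.64) was lost without 2D replicate 1 (−0.50), 2 (−0.52) or 3 (−0.52), without day 7 replicate 3 (−0.48) and with scaling by library size alone (−0.38). Spp1, osteopontin, and Thbs1, thrombospondin-1, held lower. Spp1 went from 12500.3–15761 CPM in 2D to 5294, 5137 and 3593 CPM (log2 fold change −1.62, SE 0.14), and Thbs1 from 18.7–48.5 to 8.10–10.3 CPM. Among 24 tested matrix proteases and their inhibitors, 5 were called higher and 7 lower, shares near those of all genes, and 8 and 4 with scaling by library size alone. The membrane-bound collagenase Mmp14 lay at 161–169.7 and 206–208 CPM in the sets and at 199, 316 and 397 CPM at day 7. One day 7 library lay within the 2D range and the other 2 above it, and the gene held (log2 fold change 0.70, SE 0.16). Plat, the tissue plasminogen activator, rose from 71.7–95.6 to 119.6–157 CPM, and Spint2, a membrane inhibitor of serine proteases, fell from 616–829.6 to 491–558 CPM.

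The next 2 lists hold the genes that link these receptors to actin and to the nucleus. Of 35 tested genes of focal adhesion and mechanosensing, 21 were called higher and 3 lower, 17 held higher and the median log2 fold change was 0.48. Plec, the linker plectin, was counted at 127, 133 and 110.4 CPM in replicates 1–3, at 132, 136 and 122 CPM in replicates 4–6 and at 254, 374 and 653 CPM at day 7 (log2 fold change 1.75, SE 0.17, edgeR adjusted p = 2.74e-08). The day 7 libraries spread widely, and all lay above the 2D cells. Of 40 tested actin and myosin genes, 23 were called higher and 7 lower (median 0.38). Actb, cytoplasmic actin, was counted at 3358–3512 and 4304–4670.3 CPM in the sets and at 8171–10117 CPM at day 7, and the membrane linkers Msn and Rdx rose from 112–147 to 301–341 CPM and from 47.9–63.1 to 109.8–127 CPM. The genes that fell included Vil1, villin of the microvillus core (34.4–47.3 and 54.8–83.1 CPM in the sets, 17.5–20.1 CPM at day 7), and the actin-severing protein Gsn (142–222 to 109.6–116 CPM). Villin stood at 137 ± 13 CPM (SD, n = 5) at day 13.

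Targets of YAP and TEAD, transcription factors that respond to tension, went both ways, as did the tested genes as a whole. Of 28 tested genes, 9 (32.1%) were called higher and 6 (21.4%) lower, against 24.8% and 26.4% of all tested genes, with a median of 0.13. Axl, a receptor tyrosine kinase, rose from 95–120.3 to 187–231 CPM and tissue factor, F3, from 88.3–111 to 149–200.4 CPM. Ccn2, the connective tissue growth factor often used as a readout of the pathway, fell from 102–182 to 27, 32.2 and 28.6 CPM (log2 fold change −2.10, SE 0.21, edgeR adjusted p = 3.19e-08) and held against both sets.

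Whether the cells kept their epithelial identity was addressed by 3 lists. Of 38 tested genes of junctions and polarity, 9 were called higher and 13 lower. Against replicates 1–3 the counts were 14 and 11, and against replicates 4–6 they were 6 and 15. The surface adhesion molecule Epcam was counted at 22.6, 29.1 and 23.7 CPM in replicates 1–3, at 17.4, 14.4 and 14.7 CPM in replicates 4–6 and at 7.85, 4.65 and 5.12 CPM at day 7 (log2 fold change −1.73, SE 0.30, edgeR adjusted p = 5.44e-05). Ocln, occludin of the tight junction, went from 48.9–63.1 to 18.6–24.5 CPM (log2 fold change −1.44, SE 0.15). Both stood higher at day 13 than at day 7, at 56.2 ± 13.4 and 77 ± 8.01 CPM (SD, n = 5, edgeR adjusted p = 3.85e-10 and 1.06e-10). The genes that rose were others of the same class. Cdh17, the liver-intestine cadherin, rose from 105–126 and 169–192 CPM to 412–558 CPM, and Cldn6, a claudin of embryonic epithelia, from 7.76–16.1 to 32.9–46.1 CPM. Scrib, of the basolateral polarity complex, rose from 13.6–25.4 to 34.3–50.3 CPM. Tjp3, a junction scaffold, stood at 22.6, 27.2 and 29.6 CPM in replicates 1–3, at 77.6, 78.3 and 61.8 CPM in replicates 4–6 and at 21.1, 29.1 and 23.4 CPM at day 7, under the second set and overlapping with the first.

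Of 26 tested mesenchymal genes and factors of the epithelial-mesenchymal transition, 7 (26.9%) were called higher and 6 (23.1%) lower, shares near those of all genes. In this list 4 held higher and 2 held lower. Vim, vimentin, held higher with a log2 fold change of 1.26 (named after its value had been seen). Cdh2, N-cadherin, rose from 7.76–12.6 to 21.1, 29.8 and 36.7 CPM (log2 fold change 1.65, SE 0.22), and Pmepa1, which TGF-beta induces, from 145–169 to 393–468 CPM. The adhesion molecule Vcam1 fell from 85.4–101 to 15.8–26.3 CPM. The median of this list was −0.74 against replicates 1–3 and 0.35 against replicates 4–6, so that its direction depended on the 2D set. Of 29 tested keratins and ductal genes, 10 were called higher and 9 lower, with 13 and 7 against replicates 1–3 and 8 and 13 against replicates 4–6. Krt8 was counted at 991–1044 CPM in replicates 1–3, at 1529–1666 CPM in replicates 4–6 and at 2999, 2802 and 3152 CPM at day 7 (log2 fold change 1.19, SE 0.16), and Anxa10, an annexin of gastric epithelium, rose from 69.5–111 to 211–243 CPM. Prom1, prominin-1 of apical protrusions, fell from 63.1–79.5 and 106–110.4 CPM to 17.7, 13.9 and 9.38 CPM (log2 fold change −2.76, SE 0.20), and Ehf, an epithelial Ets factor, from 20.7–50.05 to 3.84–10.8 CPM. Prom1 stood at 109 ± 11.7 CPM and Ehf at 47.6 ± 9.56 CPM at day 13 (SD, n = 5).

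Secreted and apical products were examined next. Of 26 tested mucins and secreted barrier proteins, 1 was called higher, the marker S100a7a, and 16 lower, 10 of which held, and the median log2 fold change was −0.97. Tff2, a trefoil peptide that stabilizes gastric mucus, was counted at 2965, 3460.0 and 3827 CPM in replicates 1–3, at 1369, 1442 and 1424 CPM in replicates 4–6 and at 309, 408 and 237 CPM at day 7 (log2 fold change −2.92, SE 0.33, edgeR adjusted p = 1.53e-07). Spink4, a protease inhibitor of goblet cells, was counted at 280.3, 278 and 309 CPM in replicates 1–3, at 96.3, 97.5 and 119 CPM in replicates 4–6 and at 27.9, 38.7 and 22.2 CPM at day 7. In the fit against replicates 4–6 alone the median of the list was −0.64, and 11 of 27 tested genes were called lower. Against replicates 1–3 alone it was −1.27, and 18 of 26 were called lower. With the length trend removed, 12 of 26 were called lower. Of 27 tested genes of ion and fluid transport, 7 were called higher and 11 lower, with 10 and 10 against replicates 1–3 and 5 and 13 against replicates 4–6. Fxyd3, a regulator of the sodium pump, fell from 175–270.1 to 35.3, 36 and 29 CPM (log2 fold change −2.71, SE 0.15, edgeR adjusted p = 1.98e-12), and the pump's beta subunit Atp1b1 from 228–378 to 55–71.7 CPM. Ano1, a calcium-gated chloride channel, rose from 58–83 to 134–199 CPM. Fxyd3 and Atp1b1 stood at 209.8 ± 22.8 and 279 ± 29.8 CPM at day 13 (SD, n = 5).

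**Figure D5:**
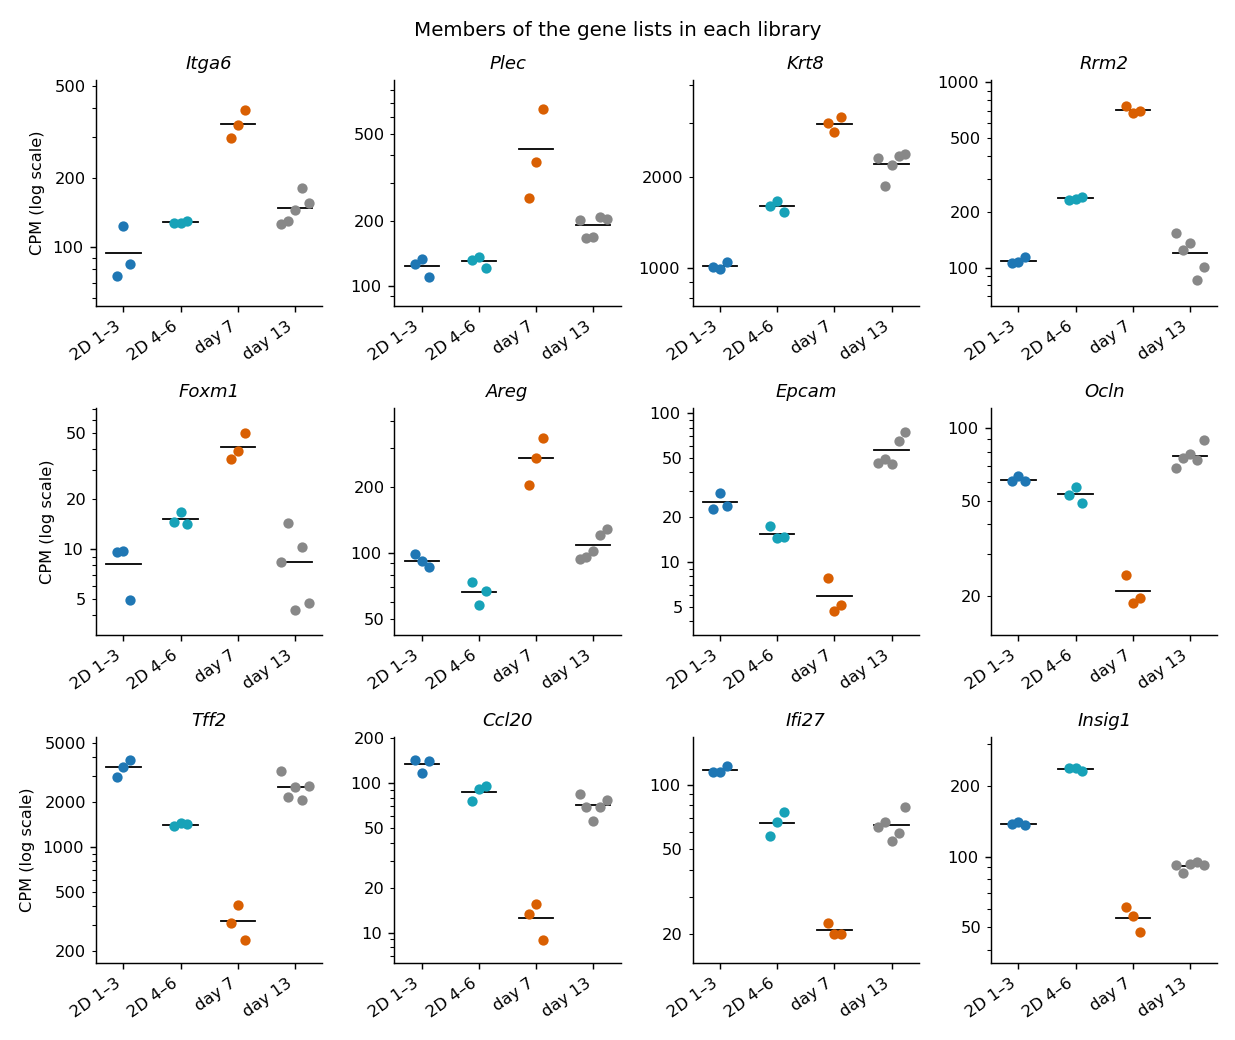
CPM on a log axis of 12 genes from the lists in each library of 2D replicates 1–3, 2D replicates 4–6, collagen day 7 and collagen day 13, with a point per library and a line at the group mean. Itga6, Plec, Krt8, Rrm2, Foxm1 and Areg lie above every 2D library at day 7, and Epcam, Ocln, Tff2, Ccl20, Ifi27 and Insig1 lie under every 2D library.

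Of 25 tested chemokines and inflammatory ligands, 4 were called higher and 13 lower, 9 of which held lower, and the median log2 fold change was −0.81. Ccl20, which draws lymphocytes and dendritic cells through CCR6, was counted at 143, 117 and 141 CPM in replicates 1–3, at 76.3, 91.2 and 95.4 CPM in replicates 4–6 and at 13.2, 15.5 and 8.95 CPM at day 7 (log2 fold change −3.10, SE 0.25, edgeR adjusted p = 9.44e-10). Cxcl16, a membrane-bound chemokine, went from 150.4–180.4 and 94.2–100.5 CPM to 19.2–24.5 CPM. Il1rn, the antagonist of the interleukin-1 receptor, was the one member that held higher (263–269.7 and 373–407 CPM in the sets, 1154, 916 and 917 CPM at day 7). Ptgs2, cyclooxygenase-2, was called higher against all 2D libraries but not against replicates 1–3 (log2 fold change 0.43, 16.8–24.7 CPM there, 5.02–8.16 CPM in replicates 4–6 and 15.2, 34.1 and 34.1 CPM at day 7).

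The promoter of Ccl20 (chr1:83116516-83116815, plus strand, RefSeq, GRCm38.p6) is shown for its match to the NF-kB site (GGG, any 2 bases, TTTCC) on the other strand, between 80 and 71 bases before the start, in capitals.
Ccl20: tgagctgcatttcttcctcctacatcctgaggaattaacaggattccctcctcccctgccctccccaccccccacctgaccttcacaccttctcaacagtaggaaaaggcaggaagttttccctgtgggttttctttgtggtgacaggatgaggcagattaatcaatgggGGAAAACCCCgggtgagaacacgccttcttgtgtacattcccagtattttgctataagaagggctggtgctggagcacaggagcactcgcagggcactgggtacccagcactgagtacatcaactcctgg
The element was found in 36.4% of the 22 windows of tested genes of the list, against 1.63% of all windows and 1.6% of those of tested genes. The genes with a match include Il1rn, which rose.

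Of 27 tested interferon-stimulated genes, 1 was called higher and 20 (74.1%) lower, 14 held lower and the median was −0.96. Ifi27, a mitochondrial interferon-induced protein, was counted at 114, 114 and 122 CPM in replicates 1–3, at 57.5, 66.7 and 74.8 CPM in replicates 4–6 and at 22.6, 20.1 and 20.04 CPM at day 7 (log2 fold change −2.09, SE 0.22, edgeR adjusted p = 4.31e-08). H2-K1, a heavy chain of class I antigen presentation, went from 186–258 to 93.2–104 CPM and Bst2, tetherin, from 107–126 and 70.1–80.1 CPM to 37.5–46.9 CPM. Class I heavy chain genes are close paralogs, and reads may be split among them. Oasl1, an inhibitor of the interferon response, was the one called higher (30.1–41.3 to 49.6–53 CPM). With the length trend removed, 15 were called lower and 1 higher.

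The promoter of Bst2 (chr8:71537423-71537722, minus strand, RefSeq, GRCm38.p6) is shown with its overlapping pair of interferon-stimulated response elements (GAAA, any 2 bases, GAAA) in capitals, between 130 and 115 bases before the start.
Bst2: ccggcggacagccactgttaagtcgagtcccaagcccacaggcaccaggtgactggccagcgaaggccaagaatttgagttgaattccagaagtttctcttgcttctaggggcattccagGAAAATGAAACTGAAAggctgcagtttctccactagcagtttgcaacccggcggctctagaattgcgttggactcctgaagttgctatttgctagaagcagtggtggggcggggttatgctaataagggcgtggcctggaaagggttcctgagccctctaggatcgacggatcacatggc
This element was found on either strand in 48% of the 25 windows of the list's tested genes, against 3.44% of all windows and 2.87% of those of tested genes.

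Metabolic genes were examined next. Of 26 tested FoxO and starvation-linked genes, 1 was called higher and 17 lower, 14 of which held lower (median −0.83). Txnip, which restrains glucose uptake and thioredoxin, went from 137–163 and 87.1–96.8 CPM to 33.8, 33.3 and 33.7 CPM (log2 fold change −1.84, SE 0.23), and Bnip3, a mitophagy receptor that hypoxia induces, from 258–290.0 and 148–157 CPM to 56.3–84.8 CPM. Foxo1 itself was the member that rose (13.8–27.2 to 34.1–39.6 CPM). Of 34 tested genes of glycolysis and hypoxia, 9 were called higher and 16 lower, with 11 and 13 against replicates 1–3 and 6 and 19 against replicates 4–6. Hk1, hexokinase-1, and Pkm, pyruvate kinase, rose, Hk1 from 38.8–51.5 and 70.7–79.2 to 94.5–131 CPM and Pkm from 1038–1099 and 1669–1829 to 1951–2236 CPM. Aldoc, aldolase C, fell from 83.8–97 and 216–222 CPM to 28.4, 34.1 and 22.6 CPM (log2 fold change −2.47, SE 0.29), and the lactate exporter Slc16a3 from 42.7–57.2 and 91.3–102 CPM to 17.9–30.6 CPM. At day 13 Txnip, Bnip3 and Aldoc were at 228 ± 69.2, 359 ± 48.7 and 223 ± 36.3 CPM (SD, n = 5), each above day 7 by edgeR (adjusted p = 5.59e-10, 5.44e-09 and 9e-09).

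Of 41 tested genes of fatty acid oxidation and lipid handling, 8 were called higher and 24 lower, 15 of which held lower. With scaling by library size alone 9 were called higher and 11 lower. Fabp1, the liver fatty acid-binding protein, went from 17.7–32.2 and 38.8–48.3 CPM to 4.69–7.35 CPM and Acot1, an acyl-CoA thioesterase, from 12.8–27.9 to 0.853–2.94 CPM. Pparg, the nuclear receptor of fatty acids, and Fasn, fatty acid synthase, were called higher (83.8–134 to 209–237 CPM and 39.7–84.5 to 98.6–137 CPM). Of 25 tested genes of cholesterol synthesis, 3 were called higher and 18 lower, 12 of which held lower (median −0.73). Insig1, the sensor that holds back SREBP, was counted at 137, 139.7 and 136 CPM in replicates 1–3, at 238, 239 and 231 CPM in replicates 4–6 and at 61.3, 56.2 and 47.7 CPM at day 7 (log2 fold change −1.78, SE 0.19, edgeR adjusted p = 5.1e-08). The list's median was −1.02 against replicates 4–6 and −0.30 against replicates 1–3. The letters TCACNCCAC of the sterol regulatory element were found in 1 of the 22 windows of the list (4.55%), that of Hmgcs1. The share was 1.24% of all windows and 1.11% of those of tested genes, and 1 match does not allow a comparison.

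The result for the respiratory chain depended on the 2D set. Of 48 tested nuclear-encoded subunits, 9 were called higher and 21 lower against all 2D libraries, 11 and 27 against replicates 1–3, 13 and 8 against replicates 4–6, 16 and 9 with the length trend removed, and 12 and 14 with scaling by library size alone. The transcripts of these genes are short, with a median of 1298 bases for the longest annotated transcript. Atp5e, a small subunit of the ATP synthase, stood at 3121, 3705 and 4352 CPM in replicates 1–3, at 616, 584 and 729.5 CPM in replicates 4–6 and at 642, 590.0 and 577 CPM at day 7. Cycs, cytochrome c, rose against both sets (106–118 to 166–194 CPM, log2 fold change 0.66). Of the 8 tested members of the list of mitochondrially encoded transcripts, 0 were called against all 2D libraries by edgeR or by DESeq2, with 0 at an unadjusted p-value under 0.05 by edgeR. This count depended on the setting: 5 were called higher with the length trend removed, 2 higher with scaling by library size alone, and 1 lower with the replicate block. Against replicates 1–3, 7 were called lower, and against replicates 4–6, 8 were called higher. Without the filter on low counts 2 of 12 were called higher and 1 lower. The mitochondrial transfer RNA transcripts mt-Tv and mt-Tl2, which the list leaves out, were called lower against all 2D libraries. For mt-Tv the call held (log2 fold change −5.80 against replicates 1–3 and −2.27 against replicates 4–6), and mt-Tl2 had no value against replicates 4–6. The mean of mt-Tv was 282 CPM in replicates 1–3, 24.2 CPM in replicates 4–6 and 5.02 CPM at day 7. The libraries were made from poly(A) RNA, and whether these counts follow the level of the transfer RNAs was not tested.

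Among 36 tested genes of the NRF2 and glutathione list, 16 were called higher and 16 lower, 13 and 10 of which held, and 16 and 10 with scaling by library size alone. The members that rose included the classical oxidant-response genes Nqo1 (8.87–21.5 to 32.2–35.8 CPM), Txnrd1 (65.1–83.4 to 126–177 CPM) and Slc7a11, the cystine importer (18.8–30.6 to 52.5, 54.6 and 71.6 CPM, log2 fold change 1.45, SE 0.28). Glutathione transferases were found on both sides. Gsta2, chosen after its value had been seen, rose by 2.36 on the log2 scale. Gstt1 went from 34.1–65.5 to 5.39, 3.87 and 2.56 CPM (log2 fold change −3.58, SE 0.26, edgeR adjusted p = 1.95e-10) and Gstm1 from 260.3–272 and 585–657 CPM to 75–103 CPM. The Gsta and Gstm genes are close paralogs and their single values are uncertain.

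Immediate early genes and growth factor signals followed. Of 28 tested AP-1 and immediate early genes, 17 were called higher and 4 lower, 15 of the former held, and the median was 0.60. Fosb was counted at 20.4, 25.2 and 25.6 CPM in replicates 1–3, at 11.9, 5.28 and 8.83 CPM in replicates 4–6 and at 46.1, 98 and 140.2 CPM at day 7 (log2 fold change 2.71, SE 0.30, edgeR adjusted p = 1.22e-07), and Fos at 211–239 and 77.3–117 CPM in the sets and at 289.8, 504 and 503 CPM at day 7. The median was 0.74 against replicates 4–6 and 0.39 against replicates 1–3. Genes of this list respond within minutes to handling, and the organoids alone were digested at 37 °C before lysis, so that the digestion and the culture form cannot be told apart. At day 13 Fosb was at 75 ± 10.5 and Fos at 719 ± 54.6 CPM (SD, n = 5). Of 31 tested genes of EGF and receptor tyrosine kinase signalling, 11 (35.5%) were called higher and 6 (19.4%) lower, against 24.8% and 26.4% of all tested genes. The rule names the called genes that rose most, and the 3 described here are ligands of the EGF receptor. Areg, amphiregulin, was counted at 98.8, 92.2 and 86.8 CPM in replicates 1–3, at 74, 58.1 and 67.1 CPM in replicates 4–6 and at 205, 273 and 335 CPM at day 7 (log2 fold change 1.79, SE 0.16, edgeR adjusted p = 2.83e-09), Ereg, epiregulin, rose from 7.76–14.8 to 25–49 CPM and Hbegf from 125–169 to 251, 386 and 509 CPM. Efna1, an ephrin ligand, fell from 73–121 to 39.2–44.2 CPM.

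Of 31 tested genes of TGF-beta, BMP and activin signalling, 14 were called higher and 3 lower, 8 and 2 of which held. Smad7, the inhibitory Smad, and Id1, a target of BMP signalling, rose, Smad7 from 11.9–23.7 to 37.3, 41.8 and 55.8 CPM and Id1 from 101–174 to 276, 289 and 390.5 CPM, while the receptor Tgfbr2 fell from 40.4–54.3 to 26.3–37.5 CPM. Against replicates 1–3 the list held 13 genes called higher and 8 lower, and against replicates 4–6 13 and 2.

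The 2D sets differed most in 8 genes taken by the ratio of their means. Mitochondrial transfer RNA transcripts, with the limit on poly(A) libraries given above, were among those high in replicates 1–3. The mitochondrial transfer RNA transcript mt-Tm stood at 278, 332 and 396 CPM in replicates 1–3, at 25.1, 19.2 and 27.7 CPM in replicates 4–6 and at 20.6, 20.5 and 24.7 CPM at day 7. Aqp8, a water channel, and Cdca2, a mitotic phosphatase subunit, were high in replicates 4–6, Aqp8 at 232, 257 and 249 CPM against 59.1, 58.2 and 60.1 CPM in replicates 1–3, and Cdca2 at 30.1, 30.2 and 26.5 CPM against 6.44, 7.76 and 6.90 CPM. At day 7 Aqp8 lay under both sets (22.1, 23.2 and 15.8 CPM) and Cdca2 above both (40.2, 49.6 and 49.4 CPM). For 251 genes (2.25%) day 7 was called higher than one set and lower than the other. The nucleoplasmin family gene Npm3 stood at 66.6, 99.9 and 107 CPM in replicates 1–3, at 13.2, 12 and 12.4 CPM in replicates 4–6 and at 37.3, 40.3 and 42.6 CPM in between at day 7, and the snoRNA host transcript Snhg6 at 181, 237 and 281 CPM in the first set, at 48.9, 40.8 and 45.3 CPM in the second and at 85.8, 86.8 and 106 CPM at day 7. For such genes no single direction from 2D to day 7 can be given, and in 369 tested genes all 3 day 7 libraries lay between the sets.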

How the data were processed

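Cells in flasks were lysed directly, and organoids after collagenase digestion of the gel. Per the study's methods, 3'-tagged poly(A) libraries were read with UMIs, and the authors processed the reads with the Drop-seq pipeline (1.0), aligning to GRCm38 and annotating with GENCODE M25. The deposited table holds UMI counts per gene, not normalized, for 27207 genes. PCR copies are collapsed by the UMI.

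Here, 11144 genes passed edgeR's filterByExpr, and counts of all 23 libraries in 6 groups were fitted with edgeR 4.0.16 (TMM factors, quasi-likelihood F-test) in R 4.3.3. Day 7 was contrasted with 2D, calling genes at 0.1 after Benjamini-Hochberg adjustment of the p-values and the standard error taken from the F statistic. The log2 CPM values behind the distances and the length trend used a prior count of 2, and the fitted log2 fold changes edgeR's default. The fit was repeated against each 2D set alone. DESeq2 1.42.0, other scalings, filters and thresholds, thinning to 1221451 counts, a block on the replicate number and leaving out each library were tried as alternatives. In simulated counts for this contrast (11019 genes), 92% of genes lowered and 98% of genes raised 4-fold were called, 74% and 80% at 2-fold, and 0.148% of unchanged genes. The simulation gave the 2D libraries 1 mean per gene, without the 2 sets, and changed only 50 genes at each fold and direction. Its rates therefore describe that simpler setting and cannot be carried over to the real contrast. Transcript lengths came from GENCODE M21 for GRCm38 and promoter windows from RefSeq.

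Genes named were taken from the 6 markers, the 8 that rose and the 8 that fell most, up to 3 highest and 3 lowest called genes of each list that reached 20 CPM in either group, and genes that part the 2D sets. Not every gene that these rules select is described. Others are said to be chosen after their values were seen. The members and lists were chosen with earlier results of these data known. The replicate numbers, shared by the labels of both groups, did not pair the libraries: the deviations of same-numbered libraries correlated at r = 0.065, 0.018 and 0.0048. Some items are not reported here.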

Additional observations from a re-analysis of the deposited data

Results flagged for a closer look

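Dixon's test was run on the 6 2D libraries of each of the 117 named genes. Chance flags about 1 in 20 groups drawn from 1 population, whereas the 2D libraries formed 2 sets. Of the 117 genes, the test set apart 4, each given with its gap to the nearest library divided by the whole range. Syt7 was at 0 CPM in 2D replicate 2 and at 2.88 CPM in the next library (ratio 0.671), while 3 counts in replicate 2 are 2.91 CPM. Msn was at 147 CPM in 2D replicate 1, against 123 CPM in the next library (ratio 0.672). Slc7a11 was at 30.6 CPM in 2D replicate 3, against 21.5 CPM in the next (ratio 0.775). Bbc3, the p53 target given below, was at 52.2 CPM in 2D replicate 3, against 41.9 CPM in the next (ratio 0.678). The first 3 were called higher and Bbc3 lower at day 7 in each fit that left out 1 library.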

How the results depend on the processing

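Under the other settings, 4483 to 6370 genes were called, and 4584 to 5907 when single libraries were left out. Called higher were then 2301 to 2905 genes, called lower 2283 to 3002, and with at least a 2-fold change 1587 to 1948 (519 to 720 higher and 1043 to 1256 lower). The count with at least a 2-fold change rose to 2738, 1121 of them higher, against 2D replicates 1–3 alone. The genes that rose at least 2-fold numbered 898 with scaling by library size alone and 888 without a filter on low counts, the latter among 24507 genes. Scaling by library size alone moved the median of all genes from −0.02 to 0.14. With the replicate number as a block, a pairing for which the check gave no ground, 6072 genes were called and 2284 with at least a 2-fold change, and the block turned the sign of no named gene. The pseudo-F was 10.2 over the 500 most variable genes and 5.11 with scaling by library size alone (exact permutation p = 0.0238), with the limit on exchangeable libraries given above. Against 2D replicates 4–6 alone the sign turned for Fn1 (0.025), Hspe1 (0.38), Npm3 (1.65) and Snhg6 (1.02). Npm3 also turned with library size alone (0.056), with the length trend removed (0.22), which also turned Snhg6 (0.21), and without 2D replicates 2 (0.15) and 3 (0.20), its range over left-out libraries being −0.46 to 0.20. For day 7 against day 13, 4 genes that were not called with all libraries turned sign without single ones, Fn1 (range −0.024 to 0.26), Vcam1 (−0.35 to 0.0049), Fosb (−0.049 to 0.64, the latter called, without day 7 replicate 1) and Atp5e (−0.063 to 0.037). The length setting was chosen after seeing the data, and the cause of each shift was not tested. Depth limits genes under about 3 counts, 1.16 to 3.22 CPM.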

Other observations

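Among 27 tested p53 targets, 12 were called higher and 6 lower at day 7, 11 and 3 of which held. Ccng1, cyclin G1, rose from 97.7–137 CPM in 2D to 256–311 CPM (log2 fold change 1.16, SE 0.10) and the RNA-binding protein gene Zmat3 from 18.4–26.9 to 43.8–56.7 CPM. The pro-apoptotic targets Bbc3, which encodes Puma, and Pmaip1, which encodes Noxa, fell. Bbc3 went from 37–52.2 to 15.3–18.6 CPM and Pmaip1 from 37–58.2 to 17.1–25 CPM. Among 36 tested genes of the unfolded protein and integrated stress response, 7 were called higher and 11 lower, with 12 and 7 under scaling by library size alone and 11 and 10 with the length trend removed. Slc7a5, which imports large neutral amino acids, rose from 25.2–38.4 to 79.4–115 CPM, while the chaperone partner Dnajb9 fell from 50.6–103 to 27.7–39.7 CPM.

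Among 15 tested heat shock genes, 5 were called higher and 4 lower, and 1 in each direction held, with 7 and 2 called under scaling by library size alone. Hsp90aa1, the inducible form of HSP90, rose from 111–229 to 322–508 CPM, and Hspb1, the small heat shock protein 27, fell from 21.1–34.4 to 4.26–7.25 CPM. Among 24 tested genes of Wnt and Notch signalling, 7 (29.2%) were called higher and 6 (25%) lower, shares near those of all genes, with 8 and 4 under that scaling. The Notch ligand Jag2 stood at 4.85–8.87 and 12.4–15.8 CPM in the 2D sets and at 25, 18.6 and 30.7 CPM at day 7. Wnt4, a secreted Wnt ligand, stood at 16.3–26.8 CPM in 2D, at 5.39, 8.91 and 7.25 CPM at day 7 and at 23.5 ± 3.49 CPM at day 13 (SD, n = 5).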
